A study of Mus musculus with 2 samples.

Results

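The genes described here encode subunits of phosphoinositide 3-kinase (PI3K), 2 proteins that bind it, and 2 phosphatases that act on its lipid products. Members were all probe sets on the array annotated to exactly 1 of 9 gene symbols, 27 of the 45101 on it. The 9 genes were Pik3cd, Pik3cg, Pik3ca, Pik3r1, Pik3r5, Pik3ap1, Pik3ip1, Inpp4b and Inpp5d, out of 18194 genes represented by at least 1 such probe set. The rule itself used no measured values, but the 9 genes were chosen with earlier results of these data known.

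The study compared DX5- and DX5+ natural killer (NK) cells, both sorted as NK1.1+ CD3- cells from livers of naive B6 wild-type mice. DX5 is an antibody to the integrin alpha 2 chain. Each population was hybridised to 1 Affymetrix expression array, so n = 1 per group; the sources used here do not state the number or age of the mice. With no replicate there is no spread between samples, no test between the populations was made, and every ratio below describes these 2 arrays.

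Class I PI3K adds a phosphate to a membrane lipid and so makes PIP3, which recruits kinases such as Akt to the membrane. Class IA enzymes pair a catalytic chain (p110 alpha, beta or delta) with a regulatory chain such as p85 alpha and act mainly below tyrosine-phosphorylated receptors and adaptors. Class IB pairs p110 gamma with p101 or p84 and answers to G protein-coupled receptors, among them chemokine receptors. In NK cells p110 delta and p110 gamma both take part in maturation, migration and cytokine release. SHIP1 and INPP4B act in sequence on PIP3 and its breakdown product.

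At the brightest probe set of each of the 9 genes, the class IB pair and Pik3ip1 were lower in DX5- cells. The class IA members and SHIP1 lay nearer to equal at these probe sets. Pik3r5, encoding p101, was 3.91-fold lower in DX5- cells. Pik3ip1, which encodes a membrane inhibitor of PI3K, was 1.72-fold lower and Pik3cg, encoding p110 gamma, 1.56-fold lower. Pik3cd, encoding p110 delta, was 1.27-fold higher. The other 5 genes differed by less than 1.5-fold between the arrays, or had a bound under that size.

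By count, 1 of 9 members (11.1%) was at least 2-fold apart, beside 8.98% of the 9828 genes detected on these arrays. The background was 5.37% in the lower and 3.61% in the higher direction alone. At 1.5-fold, 3 of 9 members were apart, all lower in DX5- cells, beside a background of 24% in either direction, 13.5% in the lower one and 10.5% in the higher one. With spike-in scaling Pik3ip1 (-0.56) and Pik3cg (-0.43) no longer passed 1.5-fold. At 3-fold 1 of 9 was apart, beside 2.86% of detected genes. At 2-fold the members' share thus lay near the background. The median log2 ratio of the members, DX5- minus DX5+, was 0.02 and their mean -0.34. The mean of the 8 members other than Pik3r5 was -0.14. Over all detected genes the median was -0.01.

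A gene counted as detected when it exceeded, on at least 1 array, a limit set from gene families little used in lymphocytes or liver. That limit was 98.6 (DX5-) and 109 (DX5+) intensity units. Each gene was represented by the brightest of its probe sets, by mean log2 intensity. Of the 27 member probe sets, 22 were above both limits, 2 above that of DX5- cells only, 1 above that of DX5+ cells only and 2 below both. Between probe sets of 1 gene the SD of the log2 ratio was 0.32, over 4037 genes. This SD covers probe noise and leaves out differences between mice, sorts and labellings.

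**Figure D1:**
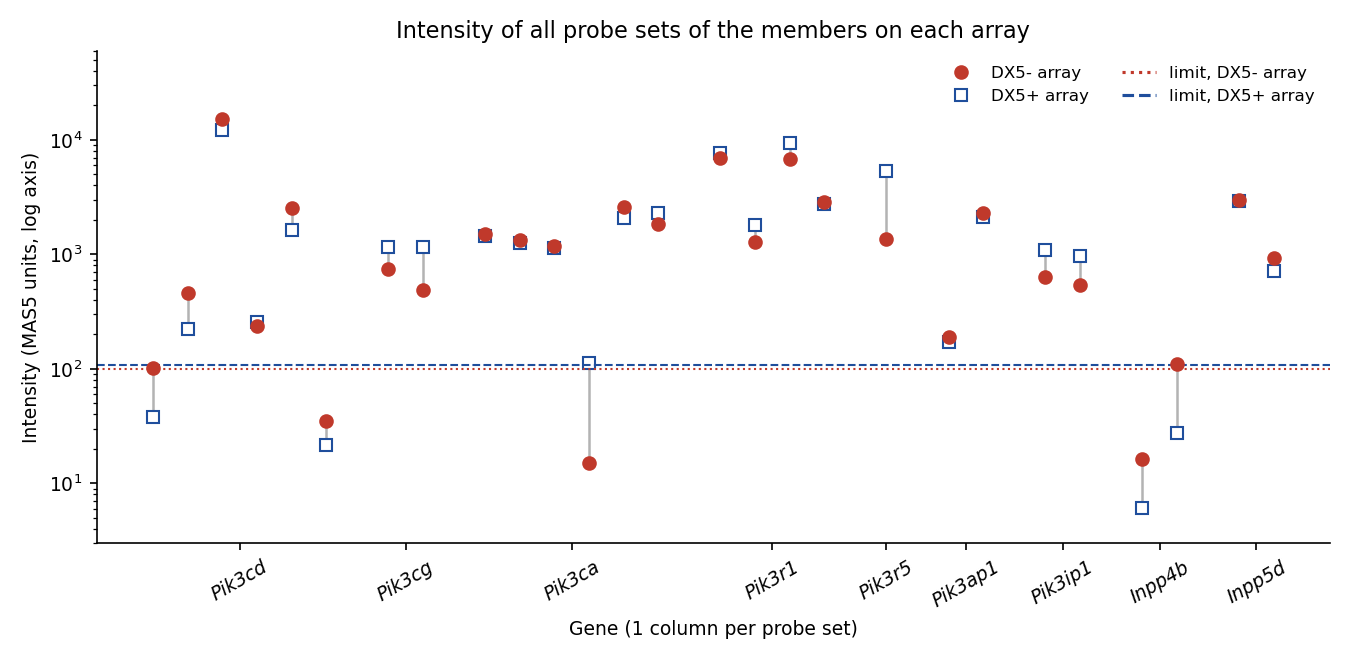
Intensity (vertical log axis, MAS5 units) of the 27 probe sets of the 9 genes; each column is a probe set, filled circles are the DX5- array, open squares the DX5+ array, and the dotted and dashed lines are the detection limits of 98.6 and 109. The longest line among probe sets above both limits is that of Pik3r5, at 1368 (DX5-) and 5350.5 (DX5+).

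The sorted cells were first set against markers. All 15 NK cell marker genes with their own probe set were detected, among them Ncr1, the gene of the receptor NKp46, at 2390 (DX5-) and 1788 (DX5+) intensity units. In that list 1 gene was at least 2-fold higher in DX5- cells, Cd7 (5.87-fold), and 2 were lower, the transcription factor gene Eomes (8.09-fold) and the perforin gene Prf1 (2.89-fold). Both sorts excluded surface CD3. Transcripts of 7 among 11 detected T cell markers were nevertheless 2-fold or more up in DX5- cells, with a summed intensity of 30448 (DX5-) and 12521 (DX5+) over the 14 represented markers. Itga2, the gene of the DX5 antigen, read 29 (DX5-) and 105.2 (DX5+). Both were below the limit of their array, the DX5+ value only just. Ratios of 3' to 5' intensity of the actin control were 1.73 and 1.62. The 18 spike-in control probe sets all read lower in the DX5- hybridisation (median -0.22 in log2 ratio). Scaling to them raised the median of all detected genes from -0.01 to 0.19.

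The class IB genes are described first. The regulatory subunit p101, encoded by Pik3r5, binds p110 gamma and makes it responsive to the beta and gamma chains of G proteins. Its 1 probe set (1434980_at) read 1368 (DX5-) and 5350.5 (DX5+). DX5+ cells thus had the higher value, with a log2 ratio of -1.97. Of 8749 genes above both limits, Pik3r5 had the 70th lowest ratio. No second probe set of Pik3r5 was on the array to set beside it.

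Pik3cg, the catalytic partner of p101, had 2 probe sets. The brighter (1422707_at) read 747 (DX5-) and 1166 (DX5+), a log2 ratio of -0.64. The other (1422708_at) read 490 and 1166, a log2 ratio of -1.25, or 2.38-fold. Both were lower in DX5- cells, and only the second passed 2-fold. The gap between these readings of a single gene is 0.61, wider than the SD between probe sets. Of the genes above both limits, 11.0% had a lower ratio than Pik3cg at its brighter probe set.

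The sequences before the transcription starts of the 3 genes at least 1.5-fold lower in DX5- cells are shown because these genes lay on the same side. They come from RefSeq on GRCm38.p6, 250 bases each, 5' to 3' on the gene's strand, and all 9 members had at least 1 such window. Capitals mark matches on either strand to 4 short motifs: GTAAACA of FOXO factors, AGGTGT of T-box factors, GGAAGT of ETS factors and GGGCGG of Sp and Krüppel-like factors. For Pik3r5 the window is chr11:68431875-68432124 on the plus strand, for Pik3cg chr12:32208660-32208909 on the minus strand, and for Pik3ip1 chr11:3330481-3330730 on the plus strand.
Pik3r5: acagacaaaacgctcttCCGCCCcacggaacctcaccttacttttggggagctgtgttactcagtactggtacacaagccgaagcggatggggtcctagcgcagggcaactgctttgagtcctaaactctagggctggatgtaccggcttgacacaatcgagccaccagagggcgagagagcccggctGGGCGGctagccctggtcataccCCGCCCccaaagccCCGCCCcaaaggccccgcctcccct
Pik3cg: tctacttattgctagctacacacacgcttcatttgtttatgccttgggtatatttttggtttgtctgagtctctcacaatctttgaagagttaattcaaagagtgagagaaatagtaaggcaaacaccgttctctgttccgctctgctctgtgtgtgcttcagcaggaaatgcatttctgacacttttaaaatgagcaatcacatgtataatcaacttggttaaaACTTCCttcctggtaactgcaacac
Pik3ip1: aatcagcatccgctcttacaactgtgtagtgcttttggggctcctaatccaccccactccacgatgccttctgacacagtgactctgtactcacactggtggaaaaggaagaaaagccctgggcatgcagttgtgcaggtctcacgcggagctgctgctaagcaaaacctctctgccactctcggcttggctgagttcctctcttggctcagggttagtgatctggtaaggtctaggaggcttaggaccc

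The 3 windows shared none of these motifs. The Pik3r5 window held GGGCGG or its complement 4 times, a motif present in 32.7% of 32851 promoter windows of this length. It was in 5 of the 13 windows of the members, among them 1 of Pik3r1 with 4 matches and 1 of Pik3cd with 3. The Pik3cg window held GGAAGT once, in its complement ACTTCC; 19.7% of windows have it. A window before another listed Pik3cg start, which overlaps the one shown, held GTAAACA once, against 3.17% of windows. That was 1 of the 13 windows of the members. The Pik3ip1 window held none of the 4. AGGTGT, present in 11.8% of windows, was in 0 of the 13 windows of the members. No matches overlapped. GC content was 61.6% for Pik3r5, 38.8% for Pik3cg and 53.6% for Pik3ip1.

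The other class I genes detected also read lower in DX5- cells. Pik3r6, which encodes the alternative class IB subunit p84 and is the next protein-coding gene after Pik3r5 in RefSeq, read 102.5 (DX5-) and 158 (DX5+). That is 1.54-fold lower, close to the limits; it was picked once its value was known. Pik3cb, encoding p110 beta, a class IA catalytic chain that can also answer to G proteins, read 361 and 840 and was 2.33-fold lower in DX5- cells. Of the 3 detected genes among 4 other class I subunits, 1 was at least 2-fold lower and 0 higher, with a median log2 ratio of -0.63.

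**Figure D2:**
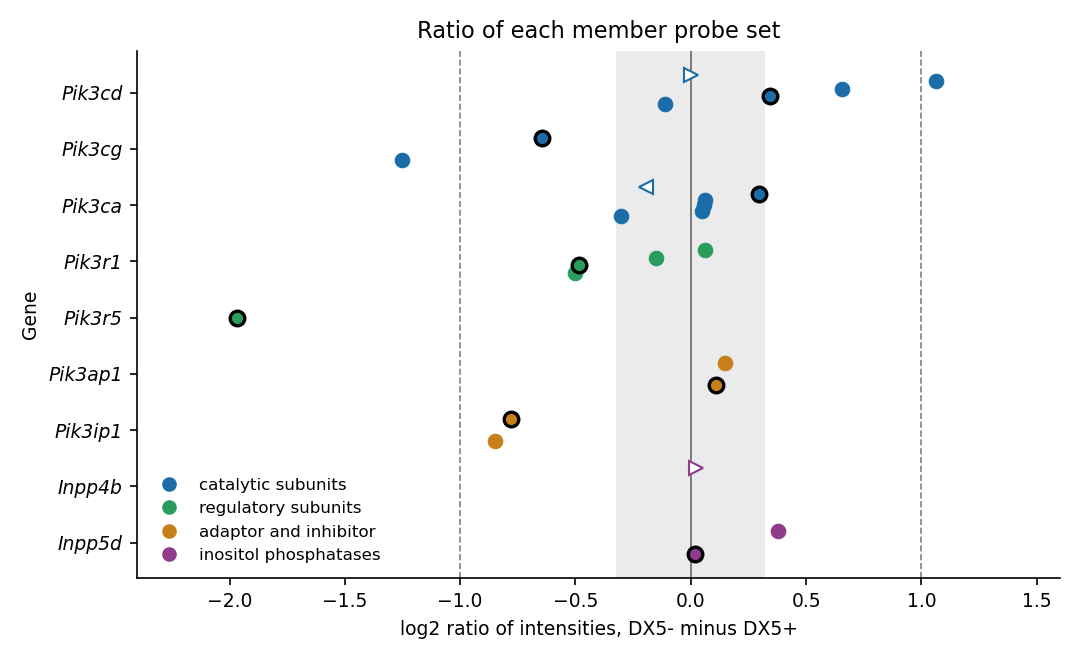
log2 ratio of intensities, DX5- minus DX5+ (horizontal axis), for each member probe set by gene; circles are probe sets above both limits, black rims mark the probe set that represents the gene, open triangles are lower bounds, the grey band is 1 SD between probe sets (0.32) either side of 0 and dashed lines are 2-fold. Pik3r5 lies at -1.97, both Pik3cg circles lie left of the band, and those of Pik3cd run from -0.11 to 1.06.

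At their brightest probe sets the class IA catalytic members, Pik3cd and Pik3ca, did not share the direction of Pik3cg. For Pik3ca the side depended on the probe set. Pik3cd, whose product p110 delta is enriched in leukocytes, had 6 probe sets, 4 of them above both limits. Its brightest (1443798_at) read 15294 (DX5-) and 12070.1 (DX5+), a log2 ratio of 0.34. Of the other 3, 1453281_at read 2552 and 1622, 1422992_s_at read 463 and 221, and 1446770_at read 239 and 258. Thus 3 of these 4 probe sets were higher in DX5- cells, by 1.27-fold, 1.57-fold and 2.09-fold, and 1 was 1.08-fold lower. The remaining pair were dim. Of these, 1422991_at read 101 on the DX5- array, just above its limit, and 37.8 (DX5+). The other, 1458321_at, was below both limits. No probe set was placed on a transcript, so the target of the brightest was not checked.

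Pik3ca, encoding the widely expressed p110 alpha, had 6 probe sets, 5 of them above both limits. The representative one (1453134_at) read 2570.4 (DX5-) and 2094 (DX5+), 1.23-fold higher. A further probe set (1460326_at) read 1849 and 2279, 1.23-fold lower. The log2 ratios of the other 3 lay between 0.05 and 0.06. These 5 readings thus fell on both sides of equal, within 1 SD between probe sets. The sixth (1440054_at) read 15.0 on the DX5- array, below its limit, and 113 on the DX5+ array, just above it, so its ratio is only bounded, at 1.14-fold or more.

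Pik3r1 encodes p85 alpha and shorter forms that stabilise the class IA catalytic chains and bring them to phosphotyrosines. Its 4 probe sets were all above both limits. The representative one (1438682_at) read 6777 (DX5-) and 9475 (DX5+), 1.40-fold lower. The others read 6947 and 7711 (1425514_at), 1276 and 1808 (1425515_at) and 2884 and 2760.2 (1451737_at). Hence 3 of 4 were lower in DX5- cells, by 1.11-fold to 1.42-fold, and 1 was 1.04-fold higher. None passed 1.5-fold.

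Differences between the ratios of 2 genes do not change when an array is rescaled by a single factor. The log2 ratio of Pik3cd exceeded that of Pik3cg by 0.98, so the ratio of Pik3cd to Pik3cg intensity was 1.98-fold higher in DX5- than in DX5+ cells. Over the 8 pairs of their probe sets above both limits, 8 differences were above 0, from 0.53 to 2.32. For Pik3ca against Pik3cg the difference was 0.94, and 10 of 10 pairs were above 0. For the regulatory genes, Pik3r1 exceeded Pik3r5 by 1.48, with 4 of 4 pairs between 1.46 and 2.03. Over the 3 class IA and 2 class IB members, 39 of 39 pairs had the higher ratio in the class IA gene, from 0.14 to 3.03. The pairs reuse the same probe sets, 3 of them for class IB, so they are not independent readings. Class IA as a whole did not follow this order, since Pik3cb, no member, lay between the representative probe sets of Pik3cg and Pik3r5, at -1.22.

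Within each class the readings were less even. Pik3r5 was further apart between the arrays than its partner Pik3cg, by 1.32 in log2 ratio at the representative probe sets and 0.72 at the other Pik3cg probe set. Pik3cd and Pik3ca differed by 0.05 in log2 ratio, with 16 of 20 pairs higher in Pik3cd. Pik3cd exceeded Pik3r1 by 0.82, with 15 of 16 pairs above 0.

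**Figure D3:**
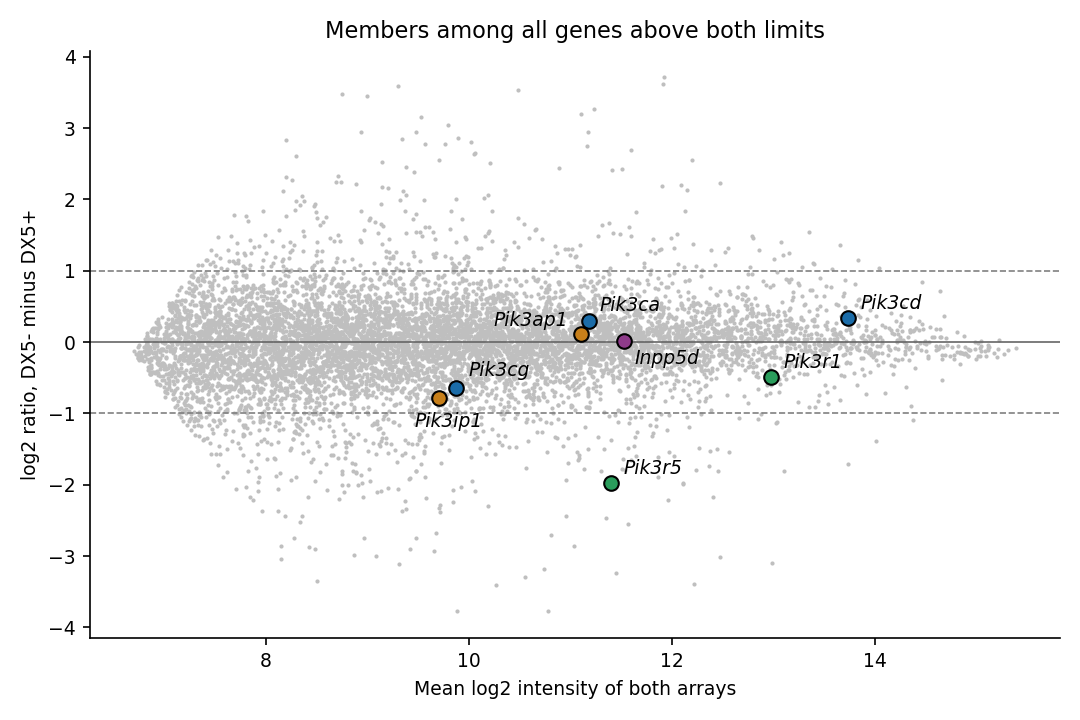
log2 ratio, DX5- minus DX5+ (vertical axis), against the mean log2 intensity of both arrays (horizontal axis) for the 8749 genes above both limits (grey points), with 8 of the 9 members in colour and dashed lines at 2-fold. Pik3r5 lies below the lower dashed line at -1.97, and Pik3ip1 and Pik3cg lie between it and 0.

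The adaptor and the inhibitor differed from each other. Pik3ap1 encodes BCAP, an adaptor that carries p85-binding tyrosines and links receptors to PI3K. Its brighter probe set (1429831_at) read 2290.4 (DX5-) and 2121 (DX5+), 1.08-fold higher. The other (1421285_at) read 189 and 171, 1.11-fold higher. Both readings were close to equal between the populations.

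Pik3ip1 encodes a transmembrane protein that binds p110 and restrains it, and its transcript is abundant in resting lymphocytes. Its probe sets read 636 (DX5-) and 1094 (DX5+) (1428332_at), and 539 and 970.5 (1439087_a_at). DX5+ cells had the higher value at both, by 1.72-fold and 1.80-fold, so the 2 readings differed by 0.07 in log2 ratio. Of the genes above both limits 7.83% had a lower ratio than Pik3ip1. The log2 ratio of Pik3ap1 exceeded that of Pik3ip1 in 4 of 4 pairs of probe sets, by 0.89 or more.

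Of the phosphatases, Inpp5d encodes SHIP1, the phosphatase of blood cells that removes a phosphate from PIP3 and is recruited by inhibitory receptors. Its probe sets read 2973 (DX5-) and 2933 (DX5+) (1418110_a_at), and 925 and 713 (1424195_a_at). The first was 1.01-fold and the second 1.30-fold higher in DX5- cells. The sign of the first is not settled: its log2 ratio was 0.02 as deposited, -0.01 with quantile normalization and -0.02 with intensity-dependent centring. Relative to Pik3cd, Inpp5d was lower in 5 of 8 pairs of probe sets.

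Inpp4b encodes a phosphatase that acts on the lipid SHIP1 leaves behind. Its brighter probe set (1457359_at) read 110.5 on the DX5- array, just above the limit of 98.6, and 27.4 on the DX5+ array, below its limit. Against the DX5+ limit this gives at least 1.01-fold higher in DX5- cells. The other (1441416_at) read 16.2 and 6.1, below both limits. The higher value in DX5- cells therefore rests on 1 probe set at the edge of detection, and the gene was not detectable at all with the limit at the 99th percentile or with the mean over its probe sets.

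Markers of some other cell types also read lower in DX5- cells, while T cell markers, given above, went the other way. Of 7 detected macrophage and Kupffer cell markers, 6 were at least 2-fold lower in DX5- cells, and the 16 represented genes summed to 1888 intensity units (DX5-) and 6729 (DX5+). The Kupffer cell genes Clec4f, Timd4, Vsig4, Marco and Cd163 and the complement genes C1qa, C1qb and C1qc were below both limits. Of 11 detected platelet markers, 8 were at least 2-fold lower and 1 higher, and the 11 summed to 1932 and 6880.4. Neutrophil markers summed to 4915 and 10088, with 3 of 7 at least 2-fold lower and 1 higher. Dendritic cell markers summed to 8619 and 12205, with 3 of 8 at least 2-fold lower (Ccr9, Siglech and Tcf4) and 0 higher. Of 8 detected B cell markers 0 were shown to be 2-fold apart, with sums of 2560 and 2503. Among 4 detected hepatocyte markers 1 was at least 2-fold lower and 0 higher, with sums of 1494 and 2218. Among 5 detected endothelial markers 1, Fcgr2b, was at least 2-fold lower and 0 higher. Myeloid cells and platelets also transcribe class IB PI3K genes. The part of these cells in the values of Pik3r5, Pik3cg and Pik3ip1 was not tested. In sorted populations, fewer cells with a transcript and less transcript per cell cannot be told apart.

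The wider pathway was described with 11 lists by role, 212 distinct genes beside the members, of which 196 were represented and 178 were detected. Of these, 7 were at least 2-fold higher in DX5- cells (3.93%, background 3.61%) and 20 at least 2-fold lower (11.2%, background 5.37%), with a median log2 ratio of -0.08. With spike-in scaling the split was 13 higher and 15 lower, and with the mean over the probe sets of a gene it was 2 higher and 16 lower. The lists include genes known from earlier results of these data to differ, so the shares are not independent evidence.

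**Figure D4:**
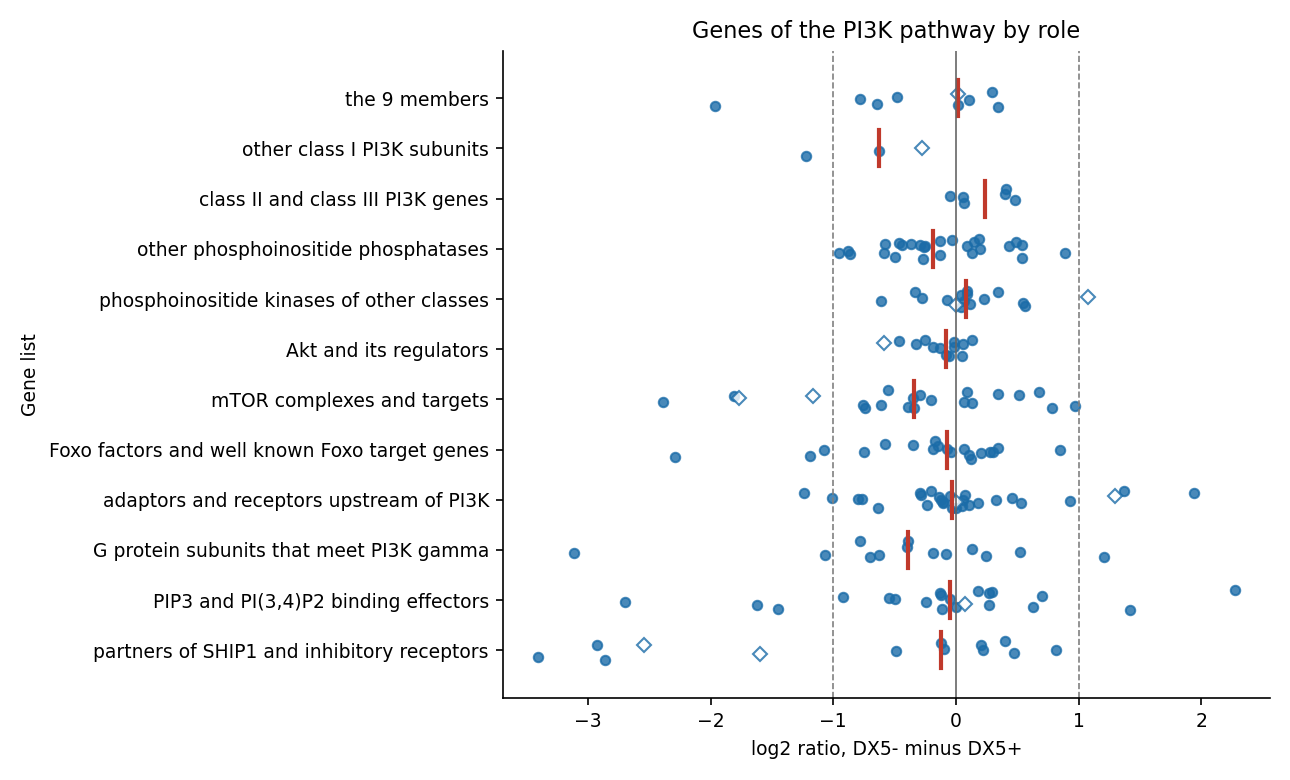
log2 ratio, DX5- minus DX5+ (horizontal axis), of every detected gene in the 11 pathway lists and the 9 members (rows); filled circles were above both limits, open diamonds are bounds, red bars are list medians and dashed lines are 2-fold. List medians lie between -0.63 and 0.24, and single genes reach -3.40 and 2.28.

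Upstream of PI3K the genes went both ways. Of 29 detected adaptors and receptors, 3 were at least 2-fold up in DX5- cells and 2 lower, with a median log2 ratio of -0.03. Vav3, a guanine exchange factor, read 1098 (DX5-) and 286 (DX5+), 3.84-fold higher. Zap70, a kinase bound to receptor zeta chains, was 2.58-fold higher, and Trat1, an adaptor of the T cell receptor that binds p85, at least 2.45-fold higher. Gab2, a docking protein that binds p85, was 2.36-fold lower, and Sos1, a Ras exchange factor, 2.02-fold lower. Klrk1, encoding the receptor NKG2D that signals to PI3K in NK cells, read 6986 and 6714, and was picked once its value was known.

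Beta and gamma chains of G proteins can activate the class IB enzyme. The list of these genes also held alpha chains and Ras genes. Of its 13 detected genes, 1 was at least 2-fold up in DX5- cells and 2 lower, with a median log2 ratio of -0.39. Gng2 was 2.31-fold higher, reading 1321 (DX5-) and 571 (DX5+). Gng11 was 8.67-fold lower and Gng12 2.09-fold lower. Gng11 is also a platelet gene, and it read 215 and 1866. Gamma chains thus lay on both sides.

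Proteins that bind PIP3 or its first breakdown product included genes far apart in both directions. Of 21 detected, 2 were at least 2-fold up in DX5- cells and 3 lower, with a median log2 ratio of -0.05. Plcg1, a phospholipase C below antigen receptors, read 672 (DX5-) and 139 (DX5+), 4.84-fold higher. Arap3, a GTPase-activating protein, was 2.68-fold higher. Rasa3, a Ras GTPase-activating protein with a lipid-binding domain, read 703 and 4572, 6.50-fold lower. Adap1, a PIP3-binding protein, was 3.07-fold lower and Dapp1, an adaptor, 2.73-fold lower.

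Below PIP3, 0 of 13 detected genes of Akt and its regulators were shown to be 2-fold apart; 1 of them, Them4, was above the limit of DX5+ cells only (97.4 and 148), so its fold is only bounded. The list had a median log2 ratio of -0.08. Akt1 read 1086 (DX5-) and 1127 (DX5+), and Akt2 1104 and 1059, while 1 other probe set of Akt2 was over 1.5-fold lower in DX5- cells; these genes and Them4 were picked once their values were known. Ppp2ca, a catalytic chain of the phosphatase PP2A, read 13751 and 13929.5. In the list of mTOR complexes and targets 4 of 21 detected genes were at least 2-fold lower in DX5- cells and 0 higher, with a median of -0.34. Sgk1, a kinase related to Akt that mTOR complex 2 activates, read 4679 and 16384, 3.50-fold lower. Ndrg1, a substrate of SGK1, was 5.23-fold lower. Prr5l, a partner of mTOR complex 2, was at least 3.41-fold lower, and Sgk3 at least 2.24-fold lower.

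FOXO factors leave the nucleus when Akt phosphorylates them. Foxo1 read 7008 (DX5-) and 7749 (DX5+), and was picked once its value was known. Of 19 detected factors and target genes, 3 were at least 2-fold lower in DX5- cells and 0 higher, with a median log2 ratio of -0.08. The 3 were S1pr1 (4.89-fold), Klf2 (2.28-fold) and Ccr7 (2.11-fold), genes of lymphocyte recirculation. Il7r, another target, read 3167 and 1756, 1.80-fold higher in DX5- cells, and was picked once its value was known. The targets therefore did not lie on a single side.

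Other genes of inositol and phosphoinositide phosphatase families were set beside Inpp5d and Inpp4b. Of 26 detected, 0 were 2-fold apart, with a median log2 ratio of -0.19. Mtmr12, a myotubularin family member, read 3391 (DX5-) and 3057 (DX5+). Inpp4a, the paralogue of Inpp4b, read 755 and 407, 1.85-fold higher in DX5- cells, and was picked once its value was known.

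Partners of SHIP1 and inhibitory receptors had 5 of 13 detected genes at least 2-fold lower in DX5- cells and 0 higher, with a median log2 ratio of -0.13. Fcgr2b, the inhibitory Fc receptor that recruits SHIP1, was 10.6-fold lower, reading 378 (DX5-) and 4001 (DX5+). Sh2d1a, the SLAM receptor adaptor SAP, was 7.61-fold lower and Klrg1, an inhibitory lectin receptor, 7.27-fold lower. Lair1 and Cd300a, inhibitory receptors, were at least 5.83-fold and at least 3.03-fold lower. Inpp5d itself was 1.01-fold apart at its brighter probe set. The other 8 detected genes of the list were within 2-fold. Among them the adaptors Dok1, Dok2 and Dok3, picked once their values were known, were 1.39-fold, 1.15-fold and 1.17-fold higher in DX5- cells. Fcgr2b is also a marker of liver endothelium and myeloid cells. Of the other endothelial markers, Cdh5, Tek, Clec4g and Lyve1 were below both limits. Pecam1 was 1.07-fold, Kdr 1.02-fold and Stab2 at least 1.53-fold lower in DX5- cells, and Eng was 1.68-fold higher. The part of such cells in the value of Fcgr2b was not tested.

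**Figure D5:**
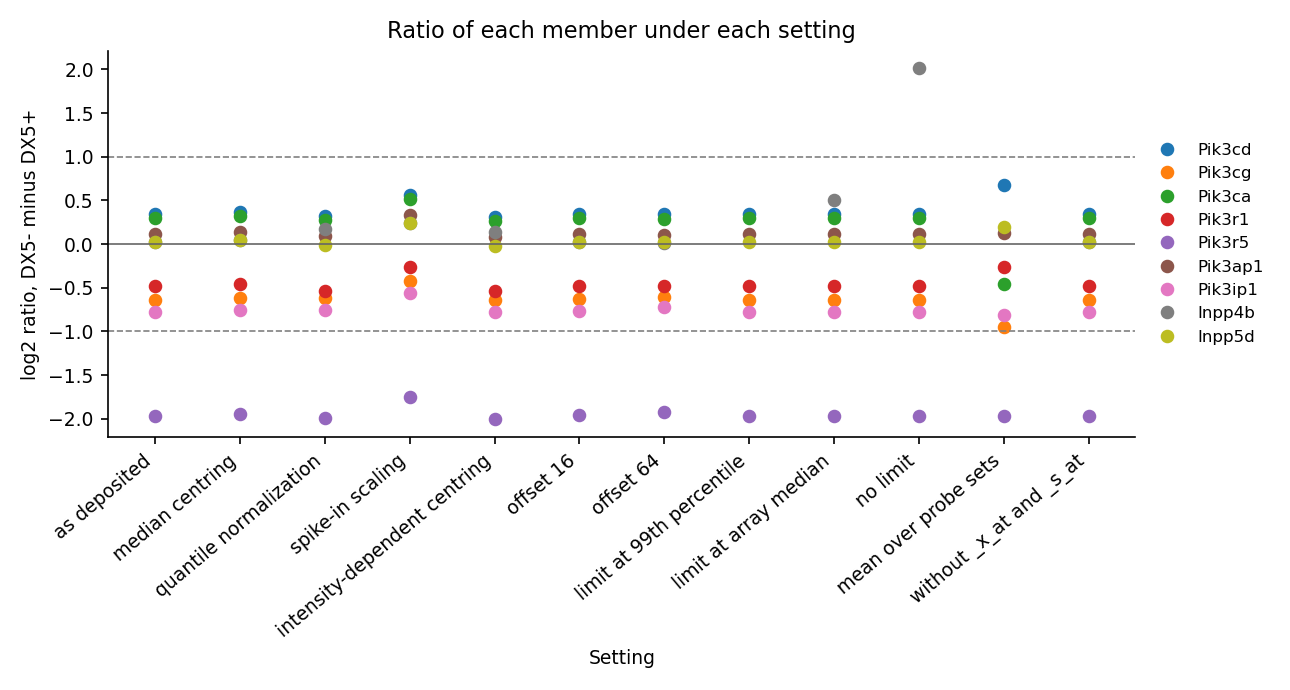
log2 ratio, DX5- minus DX5+ (vertical axis), of each member under 12 settings of scaling, offset, detection limit and probe set choice (horizontal axis); dashed lines are 2-fold, and a missing point was not detected. Pik3r5 stays between -2.01 and -1.75, and Inpp4b reaches 2.01 with no detection limit.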

How the data were processed

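RNA of 1 sorted population per array was labelled as biotinylated cRNA and hybridised, per the labels' protocols. The deposited values are linear intensity signals, 1 per probe set and array, made by the authors with MAS5 per the submitters' processing notes; no version or settings are stated in the sources used here. The mean after removing the lowest and highest 2% was 500.0 on both arrays. The table holds no detection calls or pixel spread, so the number of arrays limits the precision.

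Of the annotated probe sets 34958 had 1 symbol and 932 several; 9211 have no symbol here. By gene identifier 34754 matched RefSeq (GRCm38.p6). Intensities were taken to log2 with no offset or rescaling. The detection limit was the 95th percentile of 149 probe sets of olfactory, vomeronasal, taste, keratin-associated, crystallin and opsin genes. Where a gene passed 1 limit, the limit replaced the other value and the fold is a lower bound.

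All members were named. From each pathway list, genes at least 2-fold apart were named, or else the brightest gene; any other is said to be picked once its value was known. The members and lists were chosen with earlier results of these data known. The steps were tested on simulated data. Python 3.11.15, numpy 2.4.6, pandas 2.3.3 and statsmodels 0.14.6 were used.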

Additional observations from a re-analysis of the deposited data

How the results depend on the processing

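With 1 array per population no array could be left out. No paired analysis was possible because each group has 1 sample. A further 13 settings changed the scaling, the offset (16 or 64 units), the detection limit, the probe set per gene or the fold threshold. Pik3r5 stayed lower in DX5- cells and past 2-fold under the 11 that give a ratio, from -2.01 to -1.75, as Pik3ip1 (-0.81 to -0.56), Pik3cg (-0.95 to -0.43) and Pik3r1 (-0.54 to -0.27) stayed lower without passing it. Pik3cd stayed higher, from 0.31 to 0.67, and Pik3ap1 from 0.08 to 0.33. Pik3ca was 0.30 as deposited and -0.46 with the mean over its probe sets, which takes in the dim 1440054_at. The number of members at least 2-fold apart, 1 as deposited, was 2 with no limit, where Inpp4b enters at 2.01, and 3 at a 1.5-fold threshold. Their median was -0.36 with the mean over probe sets, where Inpp4b is not detected. Of the pathway genes, 27 were at least 2-fold apart as deposited, 17 with the limit at the 99th percentile, which leaves fewer genes, 54 at 1.5-fold and 14 at 3-fold. The limit at the 99th percentile was 337 (DX5-) and 159 (DX5+). The difference between Pik3cd and Pik3cg was 0.94 to 1.62 in log2 ratio.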

Other observations

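PI3K of the other classes makes the lipid of endosomes and autophagosomes. Genes of class II and class III PI3K and of class III partners differed little between the arrays at their representative probe sets. Of the 6 detected, 0 were 2-fold apart, with a median log2 ratio of 0.24. Becn1, the beclin gene of the class III complex, read 7222 (DX5-) and 5453 (DX5+), 1.32-fold higher, while 1 other probe set of it went the other way by over 1.5-fold. The catalytic gene Pik3c3 read 1229 and 1180.3 and its partner Pik3r4 560.5 and 424; both were picked once their values were known.

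Kinases that make the substrates of PI3K or phosphorylate soluble inositols had 1 of 16 detected genes at least 2-fold up in DX5- cells and 0 lower, with a median log2 ratio of 0.08. Pip5k1b, a kinase that makes the substrate of class I PI3K, read 230.0 (DX5-) and 66.4 (DX5+, below the limit), at least 2.11-fold higher. Itpkb, whose product competes with PIP3 in lymphocytes, read 5878 and 4028, 1.46-fold higher, and was picked once its value was known.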
